A study of Mus musculus with 6 samples.

Results

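The genes followed here, chosen by name, describe the adult Purkinje cell: the transcription factors Rora, Lhx1, Lhx5 and Foxp2, the zebrin gene Aldoc, the Purkinje-enriched genes Ppp1r17 and Dner, and the neurofilament subunits Nefh, Nefm and Nefl. They are 10 of the 24421 genes in the count files, and each has a row in every library. The choice was made with earlier results of these data known. RNA came from cerebellar tissue of 1 year old mice, cut out as the Purkinje neuron layer with the molecular layer, 3 labelled STIM1 knockout (KO) and 3 labelled wild type (WT). STIM1 is the calcium sensor of the endoplasmic reticulum. The labels name neither the deleted exons nor the cells or promoter through which the gene was removed, no strain and no sex, and the tissue holds glia and interneurons besides Purkinje cells. In such bulk tissue, fewer cells of a type and less RNA per cell cannot be told apart.

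Purkinje cells are the output neurons of the cerebellar cortex. RORA is a nuclear receptor that Purkinje cells need to mature and survive, LHX1 and LHX5 are LIM homeodomain factors of their differentiation, and FOXP2 is a forkhead factor that marks them. Aldolase C, the product of Aldoc, is the zebrin II antigen, present in some parasagittal bands of Purkinje cells and absent from the bands between, and it is also made by astrocytes. The heavy, medium and light neurofilament chains assemble into the intermediate filaments of large axons, and the light chain is the core on which the others build.

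In these files, reads were placed mostly on the strand opposite the RNA. The strand setting of the counting is not given in the sources used here, and the counts themselves show it. Xist, the RNA that coats the inactive X chromosome of female cells, had 100, 108 and 4 counts in KO replicates 1 to 3, against 139, 79 and 10 in WT. Tsix, which is known from early embryonic cells and lies on the other strand over 1980 of the 17946 exonic bases of Xist, had 3265, 3019 and 1 counts in KO replicates 1 to 3, against 3053, 2987 and 2 in WT. The 4 libraries without Y-linked counts thus held 22.0 to 37.8 times as many Tsix as Xist counts. Pcp2, one of the most abundant Purkinje cell mRNAs, had 71, 60 and 70 counts in KO replicates 1 to 3, against 60, 59 and 47 in WT. Pet100, a mitochondrial assembly factor gene that shares 941 exonic bases with Pcp2 on the other strand, had 16179, 24449 and 19144 counts in KO replicates 1 to 3, against 17706, 22570 and 22224 in WT, more than any other tested gene. Actb, the actin gene used by every cell, had 17 to 29 counts per library. Of the 40 tested genes with the most counts, 37 (92.5%) have an exon opposite another gene, where 45.9% of the 5130 tested genes with an annotation do.

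Most RNA of a gene was thus counted in the gene opposite it or, where none lies there, in no gene. The counts given below for the 10 genes, for the listed genes and for the cell type markers are the few reads placed on each gene's own annotated strand. They may be a remainder of that gene's RNA or reads of RNA from its other strand, and for single genes this was not tested. Every value and comparison of KO with WT below describes these counts and is no direct measure of the mRNA level.

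In GENCODE M21 (GRCm38), 5 of the 10 genes have 50 or more exonic bases opposite another gene. They are Dner (Mir5126), Nefm and Nefl (each other), Rora (Gm15511, 82 bases) and Lhx5 (Gm27199, 69 bases). The last 2 antisense genes have no row among the counted genes, so no counts of them could be read. Of 2959 antisense genes in GENCODE, 533 have a row. The microRNA hairpin Mir5126 lies on the plus strand at chr1:84695839-84695915, wholly inside the non-coding part of the first exon of Dner, which is on the minus strand. Its mature sequence is shown because the row named for it held more counts than Dner in every library. The sequence is from RefSeq (GRCm38.p6), 5′ to 3′, at chr1:84695890-84695911, and capitals mark the seed, bases 2 to 8.
mmu-miR-5126: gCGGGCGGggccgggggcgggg

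Lhx1 (chr11:84518284-84525535, minus strand) and the long non-coding gene Lhx1os (chr11:84525660-84535831, plus strand) start back to back and share 0 bases of exon. The 124 bases between their starts, chr11:84525536-84525659, are shown on the minus strand, from RefSeq (GRCm38.p6), since both genes have counts and no exon lies between them. Capitals mark the match to CCAAT, read here as ATTGG.
Lhx1-Lhx1os: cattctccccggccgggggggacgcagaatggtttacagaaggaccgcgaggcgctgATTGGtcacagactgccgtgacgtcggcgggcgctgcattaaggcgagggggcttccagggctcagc
The segment is 66.1% G and C with 12 CG dinucleotides. CCAAT, searched on both strands, occurred 1 time in the 300 base window around the Lhx1 start and in 37.4% of all 32851 such windows. TATAAA, searched likewise, occurred 0 times in the Lhx1 window and in 13.6% of all windows. A match of this kind is a description of letters.

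The libraries were shallow in genes. They held from 659213 to 764839 gene counts in KO and from 645994 to 705168 in WT, 1.16% to 1.23% of the uniquely aligned reads, and the median tested gene had 24 to 31 counts. Intervals from counts and the limit of 3 counts that a 0 allows (up to 4.77 CPM, counts scaled to library size with TMM factors) cover counting error only. The targeted gene Stim1 had 4, 3 and 2 counts in KO replicates 1 to 3, against 7, 21 and 3 in WT (exact two-sided permutation p = 0.3, where 0.1 is the smallest that 3 against 3 allows), so depth and strand leave a weak check of the genotype. Y-linked counts were present in KO replicate 3 and WT replicate 3 alone. Purkinje markers were read in all libraries, with 9 of 9 listed genes tested and a summed level of 1984 to 2585 CPM in KO and 2671 to 3345 CPM in WT. Itpr1 alone gave 1125, 1325 and 1308 CPM of that sum in KO replicates 1 to 3, against 1814, 1924 and 1450 in WT. By fold change 8 of the 9 were lower in KO and 1, Pcp2, was higher, where 49.7% of all tested genes were lower. The edgeR unadjusted p was under 0.05 for 3 of the 9, where 4.62% of all tested genes had this. The groups did not overlap for 4 of the 9 (Pvalb, Itpr1 and Gng13 lower in KO, Pcp2 higher), where 10.7% of all tested genes were apart. Pvalb had the lowest p of the 9, with a log2 fold change (KO over WT) of -0.73 (SE 0.17, edgeR adjusted p = 0.917). Granule cell markers summed to 492 to 609 CPM in KO and 475 to 586 CPM in WT, Bergmann glia and astrocyte markers to 998 to 1374 CPM in KO and 1345 to 1547 CPM in WT. Oligodendrocyte markers summed to 129 to 168 CPM in KO and 133 to 180 CPM in WT, and molecular layer interneuron markers to 223 to 316 CPM in KO and 287 to 304 CPM in WT. Microglial markers stayed at 7.95 to 26.6 CPM in KO and 14.1 to 56.6 CPM in WT, and endothelial markers at 16.5 to 43.0 CPM in KO and 25.4 to 40.2 CPM in WT. Markers of unipolar brush cells and deep nuclei summed to 16.5 to 23.9 CPM in KO and 9.07 to 19.4 CPM in WT, with 2 of 5 genes at 0 in all libraries.

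None of the 10 genes passed the comparison of KO with WT. Foxp2 was too low to test, and the other 9 passed the filter on low counts. With edgeR's quasi-likelihood test over 5320 genes, 0 of the 9 had a Benjamini-Hochberg adjusted p under 0.05, where 0% of all tested genes did, and 0 of the 9 had an unadjusted p under 0.05, where 4.62% of all tested genes did. Of the 9, 3 had a log2 fold change (KO over WT) above 0 and 6 below, where 50.3% and 49.7% of all tested genes did. The median of the 9 was -0.090, against 0.0019 over all tested genes. The values ran from -0.39 for Aldoc to 0.20 for Lhx1. The 95% intervals, from the quasi-likelihood fit, are the limits these libraries set: the narrowest, that of Nefm, ran from -0.41 to 0.27 on the log2 scale, and the widest, that of Lhx5, from -0.68 to 0.74.

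**Figure D1:**
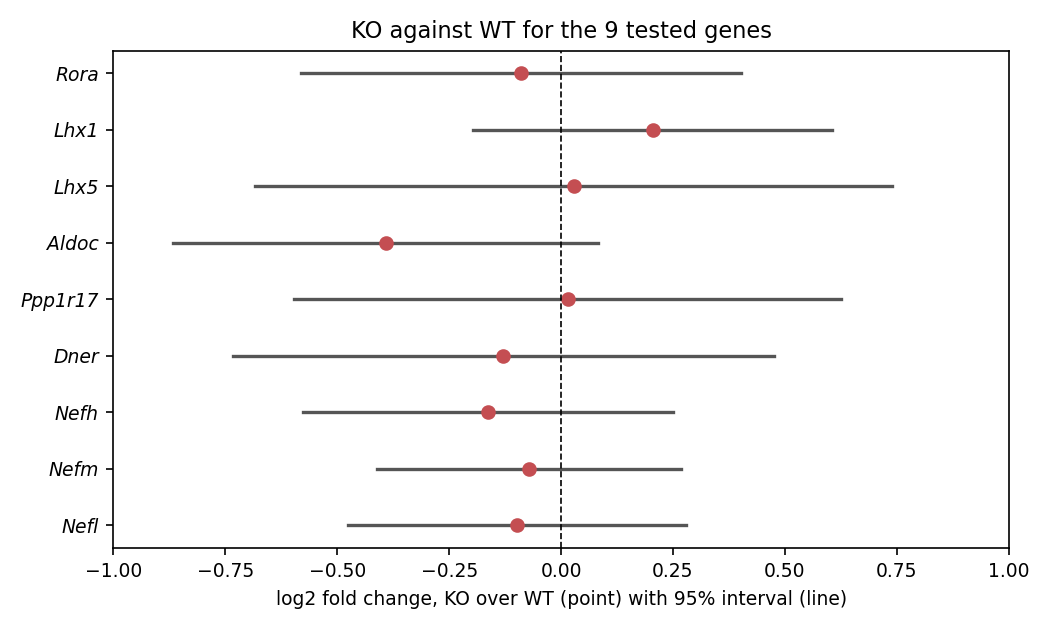
Log2 fold change of KO over WT on the horizontal axis for the 9 tested genes, with points for the edgeR estimate and lines for its 95% interval (3 libraries per genotype). Every line crosses 0, with Aldoc farthest to the left at -0.39 and Lhx1 farthest to the right at 0.20.

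Among the transcription factors, Rora (chromosome 9, 68653786 to 69388246, plus strand) had 50, 55 and 34 counts in KO replicates 1 to 3, against 58, 43 and 43 in WT. The highest library was WT replicate 1 and the lowest KO replicate 3, and the genotypes overlapped. The mean was 66.5 ± 14.4 CPM in KO and 70.7 ± 13.8 CPM in WT (SD, n = 3 each), with a log2 fold change of -0.09 (SE 0.23). Without KO replicate 3 or WT replicate 1 that estimate lay above 0, so no direction can be read from it.

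Lhx1 had 79, 63 and 58 counts in KO replicates 1 to 3, against 51, 55 and 63 in WT. Scaled to library size, it averaged 95.5 ± 4.02 CPM in KO and 82.6 ± 6.41 CPM in WT (SD, n = 3 each). Every KO library lay above every WT library, by a narrow margin between KO replicate 3 at 92.3 CPM and WT replicate 3 at 88.8 CPM. Lhx1 was the only 1 of the 9 whose groups did not overlap, where 10.7% of all tested genes were apart in either direction and 4.83% were apart with KO higher. The exact two-sided permutation test of its CPM gave p = 0.1, the smallest possible with 3 against 3. Its log2 fold change was 0.20 (SE 0.19, edgeR adjusted p = 0.987) with a 95% interval from -0.20 to 0.60, and it was 0.14 to 0.25 when each library was left out in turn. Its neighbour Lhx1os had 2, 9 and 5 counts in KO replicates 1 to 3, against 5, 12 and 12 in WT (exact two-sided permutation p = 0.3).

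Lhx5 (chromosome 5, 120431699 to 120441223, plus strand) was read at low depth, with 19, 10 and 17 counts in KO replicates 1 to 3, against 12, 14 and 18 in WT. KO replicate 2 was the lowest library and KO replicate 3 the highest in CPM. It averaged 22.0 ± 6.29 CPM in KO and 21.5 ± 3.75 CPM in WT (SD, n = 3 each), for a log2 fold change of 0.03 (SE 0.34). Foxp2 (chromosome 6, 14901349 to 15441977, plus strand) had 1, 0 and 2 counts in KO replicates 1 to 3, against 3, 0 and 2 in WT. No library held more than the 3 counts that a count of 0 allows, so no fold is given (exact two-sided permutation p = 0.7 on CPM), and a difference in Foxp2 was not detectable at this depth.

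**Figure D2:**
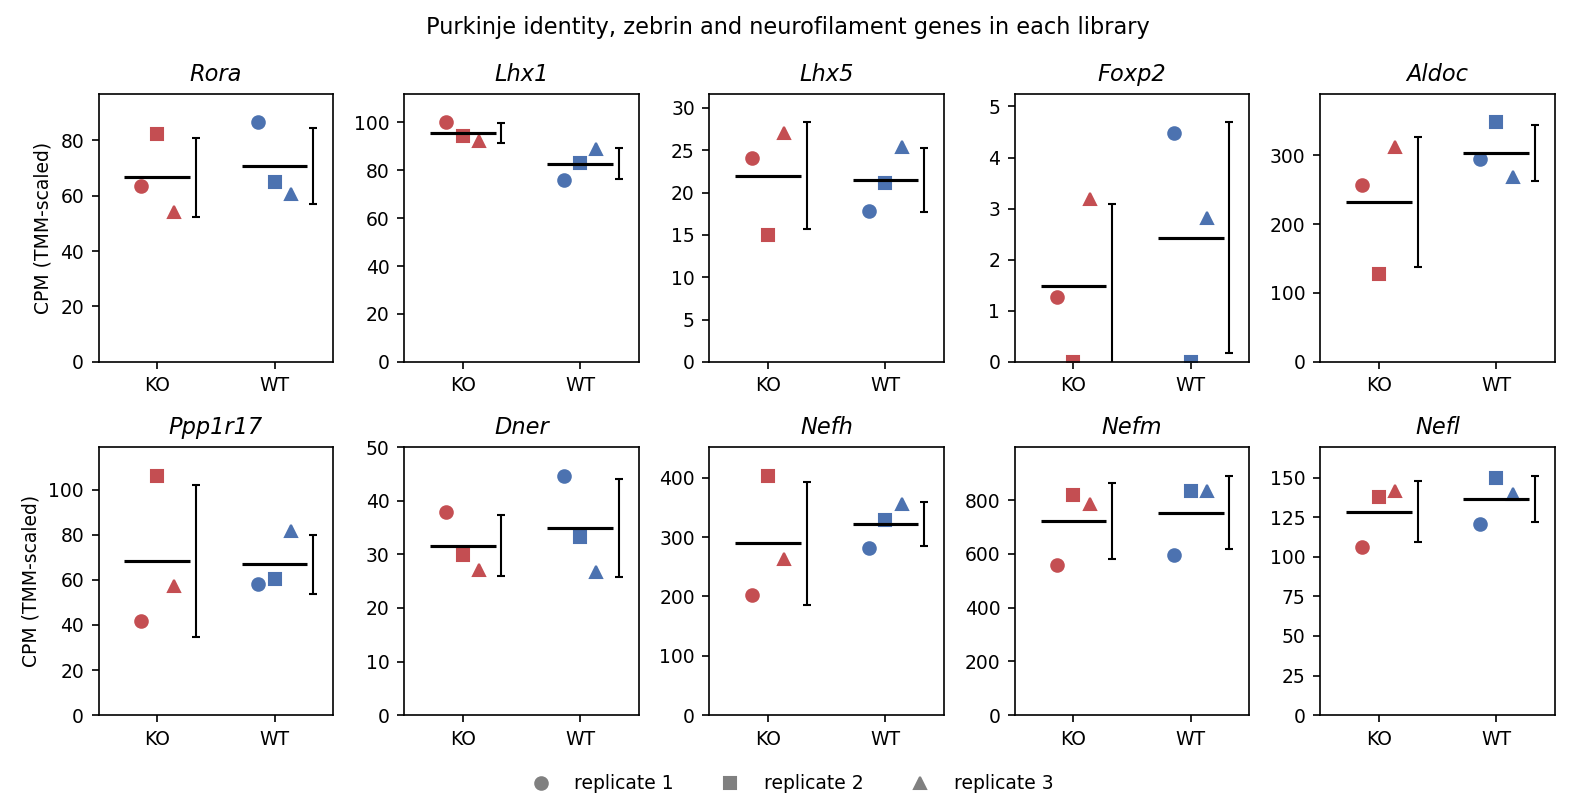
CPM on TMM-scaled library sizes (vertical axes, each starting at 0) of the 10 genes, with 1 point per library, KO left and WT right, marker shape for the replicate number, a line for the mean and a bar beside it for ± 1 SD (n = 3; bars are cut at 0). KO replicate 2 is the lowest library for Aldoc and the highest for Ppp1r17 and Nefh, and Lhx1 is the gene whose points separate by genotype.

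Aldoc (chromosome 11, 78322968 to 78327781, plus strand) had the lowest p of the 9. It had 203, 85 and 196 counts in KO replicates 1 to 3, against 198, 230 and 190 in WT. KO replicate 2 stood apart with 127 CPM, while the other 5 libraries lay between 257 and 348 CPM and KO replicate 3, at 312 CPM, was above 2 of the WT libraries. The mean was 232 ± 94.8 CPM in KO and 304 ± 40.6 CPM in WT (SD, n = 3 each), for a log2 fold change of -0.39 (SE 0.23, edgeR adjusted p = 0.987). Without KO replicate 2 the log2 fold change was -0.11. With KO replicate 3 and WT replicate 3, which hold Y-linked counts, left out it was -0.74, in a fit of 2 libraries against 2.

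Some glial markers were low in the same library and others were not. KO replicate 2 was the lowest of the 6 libraries for 4 of the 11 tested Bergmann glia and astrocyte markers (Slc1a3, Sept4, S100b and Timp4) and had the lowest summed level of that list, at 998 CPM. KO replicate 3 was the lowest for 3 of the 11, KO replicate 1 for 2, and WT replicates 2 and 3 for 1 each. Slc1a2, at 184 CPM, and Gja1, at 76.3 CPM, were higher in KO replicate 2 than in the other KO libraries. S100b, a glial calcium binding protein, had 114, 50 and 113 counts in KO replicates 1 to 3, against 134, 152 and 167 in WT. The part that glial RNA has in the Aldoc counts was not tested. Purkinje markers summed to 2585 CPM in KO replicate 2, the highest of the 3 KO libraries.

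Other genes of the zebrin bands were read beside Aldoc. Of 17 listed genes expressed in zebrin II positive or negative bands, 9 were tested, 2 with a log2 fold change above 0 (Kctd12 and Plcb3) and 7 below, 0 were called, and the median was -0.22. Leaving out each library in turn put that median between -0.31 and -0.058, the last without KO replicate 1. Kcng4, a modifying subunit of potassium channels, had 14, 22 and 14 counts in KO replicates 1 to 3, against 30, 17 and 26 in WT (log2 fold change -0.57, SE 0.32). Rgs8, a regulator of G protein signalling that is abundant in Purkinje cells, averaged 375 ± 115 CPM in KO and 461 ± 49.4 CPM in WT (SD, n = 3 each), with a log2 fold change of -0.31 (SE 0.18). Rgs8 shares exon with Gm29529 on the other strand. Among the listed genes the aspartate and glutamate transporter Slc1a6, a marker of zebrin bands, stayed below the filter with 14, 6 and 11 counts in KO replicates 1 to 3, against 9, 8 and 9 in WT.

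Ppp1r17 (chromosome 6, 56017497 to 56032689, plus strand) encodes G-substrate, a phosphatase inhibitor that cGMP-dependent protein kinase phosphorylates in Purkinje cells. It had 33, 71 and 36 counts in KO replicates 1 to 3, against 39, 40 and 58 in WT. KO libraries held both the lowest value, 41.8 CPM in replicate 1, and the highest, 106 CPM in replicate 2, so the WT range lay inside the KO range. The mean was 68.4 ± 33.6 CPM in KO and 66.8 ± 13.0 CPM in WT (SD, n = 3 each), and the log2 fold change was 0.01 (SE 0.29). It was -0.46 without KO replicate 2 and 0.28 without KO replicate 1. Of 19 listed genes for its phosphatases and kinase 15 were tested, 7 above 0 and 8 below with a median of -0.013, and 0 were called. The scaffold subunit of protein phosphatase 2A, Ppp2r1a, had 15, 14 and 12 counts in KO replicates 1 to 3, against 7, 9 and 8 in WT (log2 fold change 0.73, SE 0.37). It was the only 1 of the 15 without overlap, where 10.7% of all tested genes were apart in either direction and 4.83% with KO higher. Ppp1cb, a catalytic subunit of protein phosphatase 1, had a log2 fold change of 0.44 (SE 0.24).

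Dner (chromosome 1, 84369839 to 84696221, minus strand) encodes a transmembrane protein with EGF repeats that is placed on Purkinje dendrites and acts through Notch on Bergmann glia. It had 30, 20 and 17 counts in KO replicates 1 to 3, against 30, 22 and 19 in WT. Replicate 1 was the highest library in both genotypes and the groups overlapped. The mean was 31.6 ± 5.67 CPM in KO and 34.9 ± 9.08 CPM in WT (SD, n = 3 each), for a log2 fold change of -0.13 (SE 0.29), and 0.09 without WT replicate 1. The Mir5126 row opposite its first exon had 197, 297 and 327 counts in KO replicates 1 to 3, against 194, 322 and 235 in WT. These were 6.47 to 19.2 times the counts of the whole Dner gene, on a hairpin of 77 bases against 4784 exonic bases. Mir5126 averaged 405 ± 140 CPM in KO and 369 ± 104 CPM in WT (SD, n = 3 each), with a log2 fold change of 0.12 (SE 0.22, edgeR adjusted p = 0.997), and replicate 1 was the lowest library in both genotypes. With reads placed opposite the RNA, as for Xist and Pcp2, reads of the first exon of Dner would fall in the Mir5126 row. Which RNA gave the reads of this row was not tested, and the row is not read here as a level of the microRNA.

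**Figure D3:**
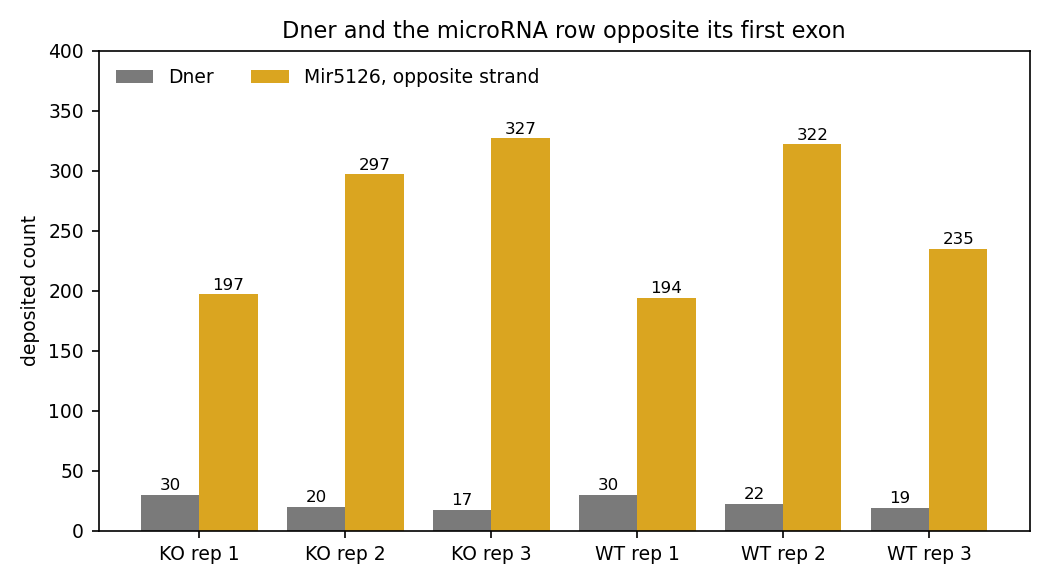
Deposited counts (vertical axis) of Dner, in grey, and of the Mir5126 row on the opposite strand of its first exon, in yellow, for each of the 6 libraries, KO left of WT. Dner stays between 17 and 30 counts and Mir5126 between 194 and 327.

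Of 24 genes listed for the Notch pathway 10 were tested, 6 above 0 and 4 below with a median of 0.017, and 0 were called. Dll1, a Notch ligand, averaged 49.4 ± 15.8 CPM in KO and 62.2 ± 1.75 CPM in WT (SD, n = 3 each), with a log2 fold change of -0.35 (SE 0.25), and it shares exon with A930024N18Rik on the other strand. Rbpj, the DNA binding partner of Notch, had 17, 10 and 20 counts in KO replicates 1 to 3, against 41, 11 and 15 in WT, so that WT replicate 1 alone lay high (log2 fold change -0.54, SE 0.43).

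Nefm held the most counts of the set. Nefm (chromosome 14, 68082590 to 68124846, minus strand), the medium chain, had 441, 547 and 494 counts in KO replicates 1 to 3, against 399, 551 and 591 in WT. Nefh (chromosome 11, 4938754 to 4948064, minus strand), the heavy chain, had 160, 270 and 165 counts in KO replicates 1 to 3, against 189, 217 and 253 in WT. Nefl (chromosome 14, 68083863 to 68089095, plus strand), the light chain, had 84, 92 and 89 counts in KO replicates 1 to 3, against 81, 99 and 99 in WT. In CPM all 3 were lowest in KO replicate 1, and within WT all 3 were lowest in replicate 1.

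Nefm averaged 721 ± 142 CPM in KO and 754 ± 138 CPM in WT (SD, n = 3 each), for a log2 fold change of -0.07 (SE 0.16). Nefh averaged 290 ± 103 CPM in KO and 322 ± 37.8 CPM in WT (SD, n = 3 each), for a log2 fold change of -0.16 (SE 0.20). Nefl averaged 129 ± 19.3 CPM in KO and 137 ± 14.7 CPM in WT (SD, n = 3 each), for a log2 fold change of -0.10 (SE 0.18). The groups overlapped for all 3 genes, and without KO replicate 1 each estimate lay above 0, at 0.08 for Nefm, 0.04 for Nefh and 0.02 for Nefl. Summed, the subunits reached 1139 ± 250 CPM in KO and 1212 ± 187 CPM in WT (SD, n = 3 each; exact two-sided permutation p = 0.7).

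The shares of the subunits overlapped between the genotypes. Nefm took 63.5% ± 3.0 of the neurofilament counts in KO and 62.0% ± 2.10 in WT (SD, n = 3 each; exact two-sided permutation p = 0.5). Nefh took 23.4%, 29.7% and 22.1% in KO replicates 1 to 3, against 28.3%, 25.0% and 26.8% in WT. KO replicate 2 (Wilson 95% interval 26.8% to 32.8%) lay above KO replicate 3 (19.2% to 25.2%), a spread within KO that spanned the WT values. Nefl took 11.4% ± 1.17 in KO and 11.3% ± 0.802 in WT (SD, n = 3 each; exact two-sided permutation p = 0.9).

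Nefm and Nefl lie side by side on opposite strands. In GENCODE M21 the transcript Nefm-202 ends in an exon of 2381 bases, chr14:68082590-68084970, of which 1108 bases lie opposite Nefl, 1008 of them in its coding sequence. The transcript Nefm-201 shares 0 bases with Nefl, and the RefSeq Nefm gene (GRCm38.p6) spans 68119545 to 68125004 and does not reach it. Which of these models was counted is not given in the sources used here, while 99.6% of the 24421 symbols in the files are RefSeq symbols or synonyms. If this exon was counted, Nefl RNA placed on the other strand falls in the Nefm row, which held 4.93 to 5.97 times the counts of Nefl.

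**Figure D4:**
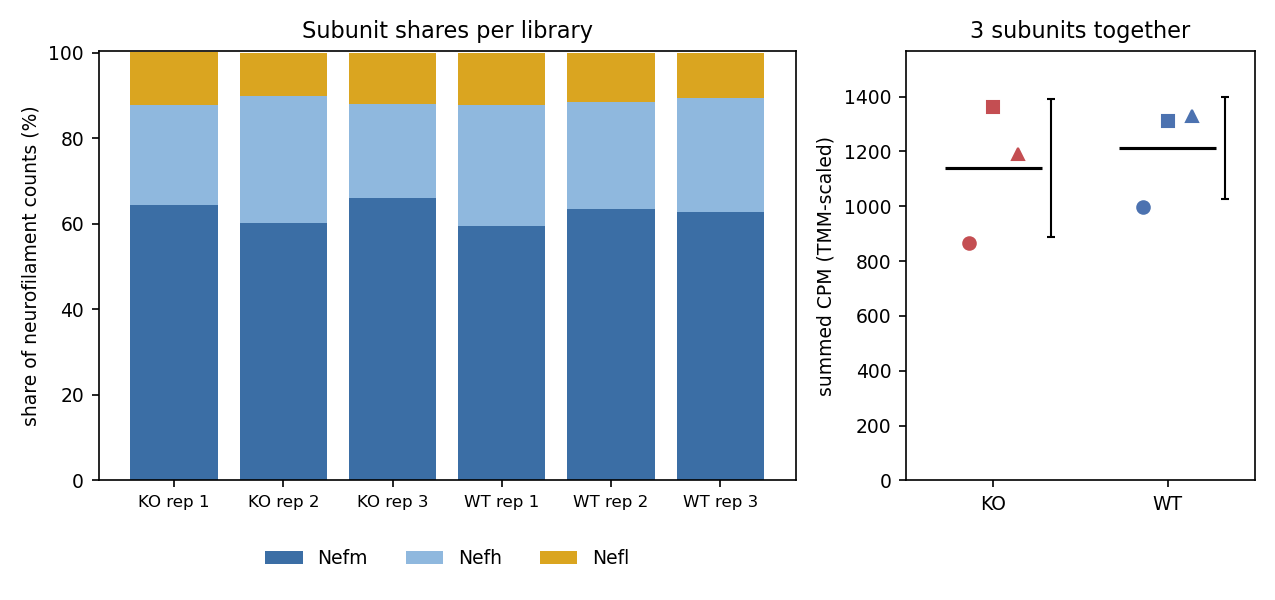
Left, the share of neurofilament counts (vertical axis, percent) taken by Nefm, Nefh and Nefl in each library, KO left of WT. Right, the summed CPM of the 3 subunits with 1 point per library, the mean as a line and ± 1 SD as a bar (n = 3); the lowest point is KO replicate 1 at 867 CPM.

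Set on exon length and averaged over the 6 libraries, the order of CPM per kilobase was Nefm, Aldoc, Nefh, Nefl, Ppp1r17, Lhx1, Lhx5, Dner, Rora and Foxp2. Nefm stood at 125 ± 24.5 CPM per kilobase of GENCODE exon in KO and 130.0 ± 23.8 in WT, Aldoc at 71.1 ± 29.1 in KO and 93.0 ± 12.4 in WT, and Rora at 5.09 ± 1.1 in KO and 5.41 ± 1.06 in WT (SD, n = 3 each). The order was the same in WT alone, while in KO alone Nefh (72.5) stood above Aldoc (71.1) and Ppp1r17 (38.9) above Nefl (38.0). Ranges over the 6 libraries were separate between Nefh and Nefl, between Lhx1 and Lhx5 and between Rora and Foxp2, and the other neighbours in that order overlapped. The Nefm length of 5782 bases includes the last exon of Nefm-202, while the exons of Nefm-201 hold 3334 bases. If Nefm-201 alone was counted, Nefm stands higher per kilobase, so its level and its overlap with Aldoc depend on the model. The spread between libraries was widest for Aldoc, where the highest library held 2.73 times the lowest, and for Ppp1r17 at 2.54 times, and narrowest of the 9 for Lhx1 at 1.32 times.

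Across the 6 libraries, taken here as a description of points that share dissection and depth, Nefm and Nefl varied together (r = 0.948 and Spearman's rho = 0.829 on log2 CPM). Nefh went with Ppp1r17 (r = 0.945, rho = 1.0). The most negative r among these genes were those of Rora with Lhx5 (r = -0.918, rho = -0.943) and of Dner with Nefm (r = -0.821, rho = -0.543). Aldoc had an r of -0.693 with Ppp1r17 (rho = -0.257), where KO replicate 2 held the lowest Aldoc and the highest Ppp1r17 value. Of all tested genes with a standard symbol, the nearest to Aldoc in pattern were Clu, which encodes clusterin (r = 0.987), and Neo1, the receptor neogenin (r = 0.984). Without the libraries KO replicate 2 and WT replicate 2, the r was 0.764 for Clu and 0.708 for Neo1. The nearest to Rora were Hspa4 (r = 0.996) and Bmi1 (0.993), to Dner Vps54 (0.983) and Scd2 (0.969), to Lhx1 Sox4 (0.988) and Sdr39u1 (0.987), and to Lhx5 Zdhhc20 (0.981) and Mettl5 (0.971). For Ppp1r17 they were Lin7c (0.989) and Pmpca (0.989), for Nefh Xkr4 (0.993) and Cdk10 (0.990), for Nefm Stx3 (0.985) and Map3k15 (0.981), and for Nefl Plekha7 (0.991) and Arnt2 (0.988). Without KO replicate 1 and WT replicate 1, the r with Nefm was 0.732 for Stx3 and 0.32 for Map3k15. For the other 14 pairs it was 0.843 to 0.996 without the 2 libraries farthest from the median of the member. With 6 libraries and 5320 genes, values of this size describe these libraries alone.

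The 10 lists of related genes, drawn up with earlier results of these data known, held 102 tested genes. Leaving out each library in turn, the list median crossed 0 for the other Purkinje transcription factors (-0.23 to 0.082), the Notch pathway (-0.17 to 0.12), the phosphatases and kinase of PPP1R17 (-0.12 to 0.055) and the other intermediate filaments (-0.063 to 0.048). None was called, and 7 had an unadjusted p under 0.05, where 4.62% of all tested genes did. All 7 were lower in KO: Itpr1, Shh, Map4, Nrcam, Sptbn1, Ldhb and Pkm. Of all tested genes with an unadjusted p under 0.05, 34.1% were higher in KO and the rest lower, so most such genes were lower in any case. Over all tested genes 49.7% lay below 0. An opposite-strand gene overlaps exons of 38 of the 102, 20 of them below 0 with a median of -0.020, while of the other 64 there were 47 below 0 with a median of -0.17.

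Other Purkinje transcription factors were mostly too low to test, 7 of 22, with 3 above 0 and 4 below and a median of -0.023. En2, an engrailed homeobox gene of the cerebellum, had 78, 64 and 61 counts in KO replicates 1 to 3, against 54, 60 and 56 in WT (log2 fold change 0.22, SE 0.19). It was the only 1 of the 7 whose groups did not overlap in CPM. Of all tested genes 10.7% were apart in either direction and 4.83% with KO higher. Etv1, an ETS factor, had 10, 11 and 3 counts in KO replicates 1 to 3, against 9, 12 and 11 in WT (log2 fold change -0.45, SE 0.44). Of 12 LIM domain cofactors and relatives 1 was tested, Ssbp2, a single-stranded DNA binding protein that stabilises LDB1 complexes, at 0.10 (SE 0.25).

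Genes known from mutants to depend on RORA in Purkinje cells had 11 of 12 tested, 1 above 0 (Pcp2 at 0.24, SE 0.20, whose other strand holds Pet100) and 10 below, with a median of -0.11. Itpr1, the IP3 receptor of Purkinje cells, had 889, 886 and 822 counts in KO replicates 1 to 3, against 1217, 1273 and 1029 in WT (log2 fold change -0.47, SE 0.14, edgeR adjusted p = 0.917). Shh, the granule cell mitogen that Purkinje cells secrete, had 6, 6 and 10 counts in KO replicates 1 to 3, against 12, 18 and 11 in WT (log2 fold change -0.92, SE 0.42). Both share exon with genes on the other strand. The list stood at -0.11 while Rora itself stood at -0.09, and without KO replicate 2 both stood at -0.27. They parted in other settings. Without WT replicate 1 Rora stood at 0.08 and the list at -0.17. Without KO replicate 3 Rora stood at 0.03 and the list at -0.12. The list overlaps the Purkinje markers, of which 8 of 9 lay below 0 with a median of -0.33, and the part that the amount of Purkinje cell RNA has in it was not tested.

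The cytoskeleton around the neurofilaments was read with 3 lists. Other intermediate filaments and linkers had 8 of 14 tested, 5 above 0 and 3 below with a median of 0.025. Among them were Macf1, a linker of actin and microtubules (log2 fold change -0.37, SE 0.25), and Des, desmin (0.25, SE 0.26), which shares exon with Gm15179 on the other strand. Axonal microtubule genes had 22 of 25 tested, 9 above 0 and 13 below with a median of -0.14. Map4, a microtubule associated protein, averaged 144 ± 33.3 CPM in KO and 197 ± 24.4 CPM in WT (SD, n = 3 each), for a log2 fold change of -0.45 (SE 0.18, edgeR adjusted p = 0.987), and Stmn1, a microtubule destabiliser, had 0.57 (SE 0.35).

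Axon initial segment and spectrin genes had 9 of 13 tested, all 9 below 0, where 49.7% of all tested genes lay below 0. The median was -0.32 and ranged from -0.40 to -0.24 when each library was left out. The groups did not overlap for 2 of the 9, the alpha spectrin Sptan1 (-0.39, SE 0.19) and the sodium channel Scn8a (-0.32, SE 0.22), both lower in KO. Of all tested genes 10.7% were apart in either direction and 5.85% with KO lower. The cell adhesion molecule Nrcam had 16, 20 and 12 counts in KO replicates 1 to 3, against 31, 32 and 21 in WT (log2 fold change -0.84, SE 0.30). Sptbn1, a beta spectrin, had 76, 39 and 40 counts in KO replicates 1 to 3, against 84, 66 and 63 in WT (log2 fold change -0.51, SE 0.23), and Gm29237 overlaps it on the other strand.

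Aldolase C is an enzyme of glycolysis, and of 16 other listed glycolytic genes 12 were tested, 1 above 0 (Pfkp, a phosphofructokinase) and 11 below. Of all tested genes 49.7% lay below 0. The median was -0.29, from -0.36 to -0.25 when each library was left out, and the groups did not overlap for 4 of the 12 (Ldhb, Pkm, Pfkm and Gpi1), all lower in KO, where 10.7% of all tested genes were apart in either direction and 5.85% with KO lower. The lactate dehydrogenase subunit Ldhb had 58, 42 and 41 counts in KO replicates 1 to 3, against 72, 71 and 64 in WT, all KO libraries below all WT libraries in CPM. Its log2 fold change was -0.60 (SE 0.20, edgeR adjusted p = 0.917). Pkm, pyruvate kinase, averaged 216 ± 11.3 CPM in KO and 270 ± 19.2 CPM in WT (SD, n = 3 each), with a log2 fold change of -0.32 (SE 0.14), and its groups did not overlap either. Neither gene passed the test over all genes. Aldoa, the paralog of Aldoc, had 155, 82 and 127 counts in KO replicates 1 to 3, against 114, 149 and 132 in WT, with KO replicate 2 lowest as for Aldoc (log2 fold change -0.16, SE 0.19).

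**Figure D5:**
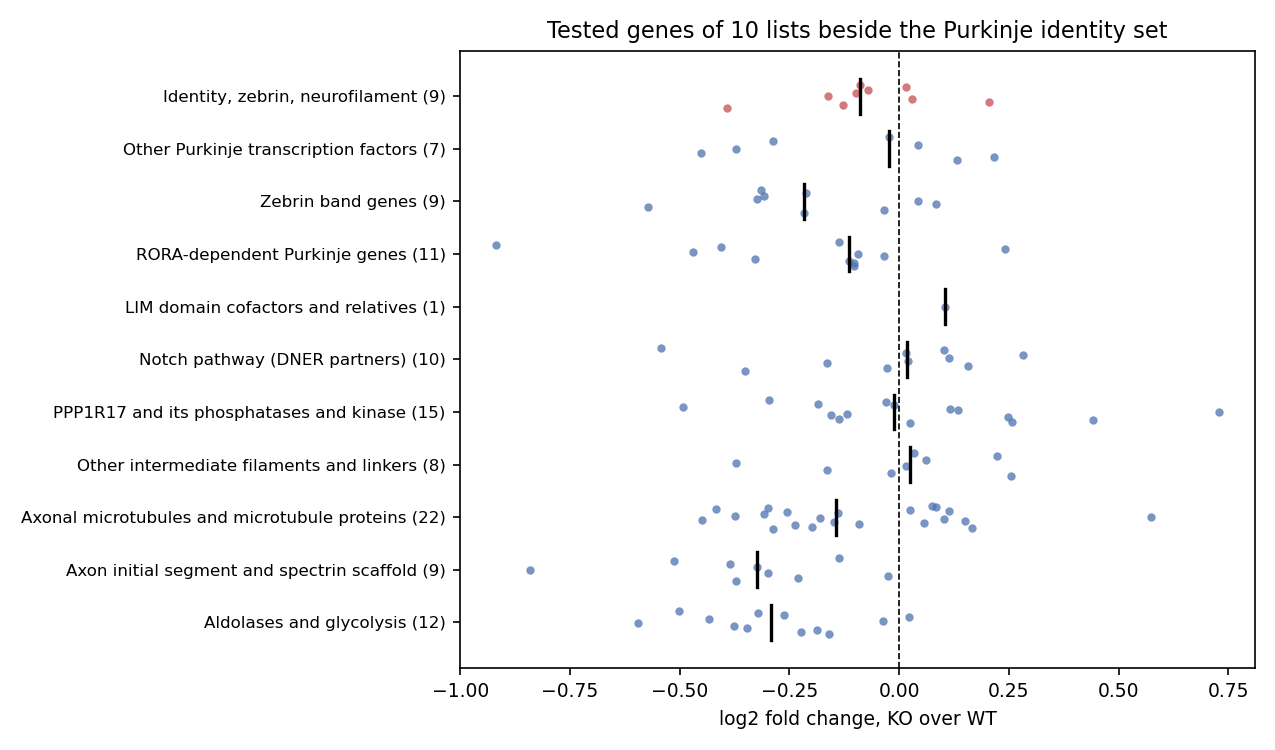
Log2 fold change of KO over WT (horizontal axis) for each tested gene of the identity, zebrin and neurofilament set, in red, and of 10 lists of related genes, in blue, with the number of tested genes in brackets and a bar at each median. All 9 axon initial segment genes and 11 of 12 glycolytic genes lie left of 0, where 49.7% of all tested genes do. The set itself has its median at -0.090. The lists were drawn up with earlier results of these data known.

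Beside these fits stand the values the authors made. Of the 10 genes, the authors' deposited DESeq table gave Aldoc the lowest p, at a fold of 0.777 in KO over WT and p = 0.27. In the authors' deposited edgeR table, whose log2 ratio runs WT over KO, Aldoc had 0.37 with p = 0.163 and Lhx1 -0.22 with p = 0.283. For Foxp2 the authors' deposited DESeq table gave p = 0.76.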

How the data were processed

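Per the labels' protocols, libraries were TruSeq mRNA libraries of TRIzol RNA, read single-end on an Illumina HiSeq. The submitters' processing notes name the build GRCm38 (mm10), the aligner TopHat, the counter HTSeq 0.9.1 and the tools edgeR and DESeq. The authors' deposited files hold counts per gene symbol, followed by HTSeq rows that name no gene; these rows were left out (98.76% to 98.84% of uniquely aligned reads in no gene). No source used here gives the strand setting; the counts of Xist, Tsix, Pcp2 and Pet100 show reads mostly placed opposite the RNA. The authors' deposited tables give a ratio (fold), a log2 ratio and a p-value, used for description alone.

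Counts of all 6 libraries were compared by the quasi-likelihood test of edgeR 4.0.16 under R 4.3.3 (TMM, filterByExpr with a minimum count of 10, Benjamini-Hochberg over 5320 genes, no covariate). On simulated counts, over tested genes of all depths, the test recovered 61.4% of 2-fold and 89.8% of 4-fold changes. The simulated counts held planted changes in many genes at once, with spread from the trended dispersion alone and no replicate effect. These shares hold for that setting and may overstate recovery in the real libraries. CPM use TMM-scaled library sizes. The members and lists were chosen with earlier results of these data known. Named genes are the 10 members, Stim1, the 2 genes of lowest p per list, the 2 nearest genes in pattern per tested member (log2 CPM, prior count 2) and opposite-strand partners. Slc1a6, S100b and the other glial markers, Aldoa, Xist, Tsix, Pet100, Actb, other list genes named outside that rule, Lhx1os and the member pairs in the correlations were chosen after their values were seen. Positions come from GENCODE M21, where 95.7% of symbols matched. RefSeq promoter windows matched 4 of the 10 genes. Replicates are called biological in the series text. Alternatives were DESeq2 1.42.0, limma-voom (limma 3.58.1), other normalisations and filters, a replicate block and leaving out each library; leaving out both libraries with Y-linked counts and scaling to all aligned reads were chosen after the data were examined.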

Additional observations from a re-analysis of the deposited data

Results flagged for a closer look

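Most reads lie outside the counts used for these genes. On average 98.8% of the uniquely aligned reads were assigned to no gene, 98.8% ± 0.0345 in KO and 98.8% ± 0.0260 in WT (SD, n = 3 each). The counts in genes are the few reads placed on a gene's own strand, while Tsix exceeded Xist by 22.0 to 37.8 times in KO replicates 1 and 2 and WT replicates 1 and 2. Reads aligned at more than 1 place made up 22.8% of all aligned records on average, 22.3% ± 1.81 in KO and 23.3% ± 1.08 in WT (SD, n = 3 each).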

How the results depend on the processing

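The count of called genes was 0 with all 6 libraries, and 0 with RLE, upper quartile, the CPM filter, DESeq2 (96 at an unadjusted p under 0.05), limma-voom, an adjusted p of 0.1 and scaling to all uniquely aligned reads. With no filter it was 6, with KO replicate 3 and WT replicate 3 (the libraries with Y-linked counts) left out it was 1, and leaving out single libraries gave 0 to 1 (1 without WT replicate 3). For these counts the cause was not tested. None of the 9 tested members was called under any of these settings, and their lowest adjusted p was 0.904. Of 135 recomputed member values 116 kept their direction and 19 did not. Aldoc (-0.655 to -0.107) and Lhx1 (0.145 to 0.253) kept theirs leaving out each library. The range crossed 0 for Rora (-0.27 to 0.0772), Dner (-0.30 to 0.0853), Lhx5 (-0.129 to 0.229), Ppp1r17 (-0.457 to 0.283), Nefh (-0.486 to 0.0398), Nefm (-0.219 to 0.0798), Nefl (-0.183 to 0.0202) and the CPM difference of Foxp2 (-2.16 to 0.073). With limma-voom Lhx5 was at -0.0021 and Ppp1r17 at -0.0858, and with scaling to all aligned reads Lhx5 was at -0.0231 and Ppp1r17 at -0.0458. That scaling put 17.5% of genes with an unadjusted p under 0.05 higher in KO, against 34.1% with TMM. The replicate block called 0 genes, with 287 at an unadjusted p under 0.05 against 246 without it, and put Ppp1r17 at -0.0239. The deviations of libraries with equal numbers correlated at 0.143, 0.0795 and 0.122, and each library correlated best with its own number. Pairs of libraries were also compared by chi-square per degree of freedom over the tested genes, where lower is closer. KO and WT libraries of equal number were the closest pairs of all, at 3.03, 2.30 and 2.49 for replicates 1 to 3. Pairs within KO gave 4.34 to 4.99 and pairs within WT 3.16 to 3.81. The labels name no pairing, and neither the main fit nor the permutation tests take one into account. Of 150 recomputed list medians 6 moved by more than the spread between replicates. Low counts limit Foxp2, Lhx5 and Dner most.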
